A study of Homo sapiens with 6 samples.

Results

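The genes described here encode the nuclear subunits of the mitochondrial respiratory chain and of ATP synthase. They were chosen by symbol among protein-coding genes: NDUFA, NDUFB, NDUFC, NDUFS and NDUFV genes for complex I, SDHA to SDHD for complex II, UQCR genes and CYC1 for complex III, COX4 to COX8 subunits for complex IV, and ATP5F1, ATP5M and ATP5P genes for complex V. This gave 90 of the 60612 genes in the deposited tables, of which 40 belong to complex I, 4 to complex II, 10 to complex III, 17 to complex IV and 19 to complex V. The symbols also bring in NDUFA4, which is known as a complex IV subunit, and the read-through genes NDUFC2-KCTD14 and ATP5MF-PTCD1.

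RNA sequencing compared SKBR3 cells kept for 30 weeks under a rising concentration of trastuzumab, an antibody against the receptor HER2, with untreated SKBR3 cells. SKBR3 is a HER2-positive breast cancer line of mammary epithelial origin, and all libraries of both groups come from it. The treated cells, named SKBR3_HR in the labels, gave 3 libraries, called trastuzumab here, and the untreated cells gave 3 libraries, called parental. The study asked which genes change while resistance to the drug forms. The labels give no final dose and do not say whether the drug was present at harvest, whether cells were cloned, or whether replicates were separate cultures, so p-values measure only the spread between these libraries, which may be technical.

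Complexes I and II take electrons from NADH and succinate and pass them to ubiquinone. Complex III passes them on to cytochrome c and complex IV to oxygen. Complexes I, III and IV pump protons out of the matrix, and complex V, the ATP synthase, lets them back in to make ATP. Most subunits are encoded in the nucleus and imported, while a small core set is encoded by mitochondrial DNA (mtDNA), so each of complexes I, III, IV and V needs both genomes, whereas complex II is nuclear throughout.

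Each library held 71015138 to 82857810 counts. CPM stands for counts per M counts, scaled with the TMM factors of edgeR, and replicates are listed in the order 1 to 3. Epithelial markers summed to 12290 to 13580 CPM in the trastuzumab libraries and 12160 to 13600 CPM in the parental libraries, although CDH1 averaged 0.0777 CPM in trastuzumab and 0.168 CPM in parental libraries. Within these sums markers moved both ways. KRT7 and KRT19 were higher in every trastuzumab library (means 2327 and 3288 CPM, against 1768 and 2842 CPM in parental libraries). EPCAM, ESRP1, GRHL2 and KRT8 were lower in every one (means 162, 22.6, 33.6 and 4914 CPM, against 185, 33.9, 46.5 and 5522 CPM). HER2's gene ERBB2 averaged 11045 CPM in trastuzumab and 7922 CPM in parental libraries. Of the marker lists for other cells, endothelial markers summed to 78.95 to 85.99 CPM in trastuzumab and 28.55 to 31.66 CPM in parental libraries, and immune markers to 42.68 to 48.63 CPM in trastuzumab and 14.78 to 17.32 CPM in parental libraries. CDH5 and CD68 made up nearly all of these sums, while PECAM1, KDR, PTPRC and CD3E were each below 0.2 CPM on average in both groups. Fibroblast and muscle lists stayed at or under 19.2 and 3.444 CPM in every library.

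Respiratory chain genes moved little and in both directions. Of the 90 genes, 84 passed the filter on low counts, and the call rule was an adjusted p below 0.05 in edgeR's quasi-likelihood test, adjusted over all 17854 tested genes. By this rule 31 were higher and 16 lower in trastuzumab cells and 37 were not called, which is 56% called. Over all tested genes 49.3% were called, 23.9% higher and 25.4% lower, and over tested protein-coding genes 59.7% were called, 28.6% higher and 31.1% lower. The members' total share of calls therefore lay between these backgrounds. Their median log2 fold change was 0.09, against -0.01 for all tested genes and -0.01 for tested protein-coding genes. No called member changed by as much as 1.5-fold in this test. The largest rise was 1.41-fold, in UQCRQ, and the largest fall 1.38-fold, in UQCRB. Libraries of the 2 groups did not overlap in 53 members, against 57.5% of all tested genes. The spread that these small changes are measured against was also small, with a median coefficient of variation within a group of 3.8% over the 80 members with at least 10 CPM in parental cells.

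**Figure D1:**
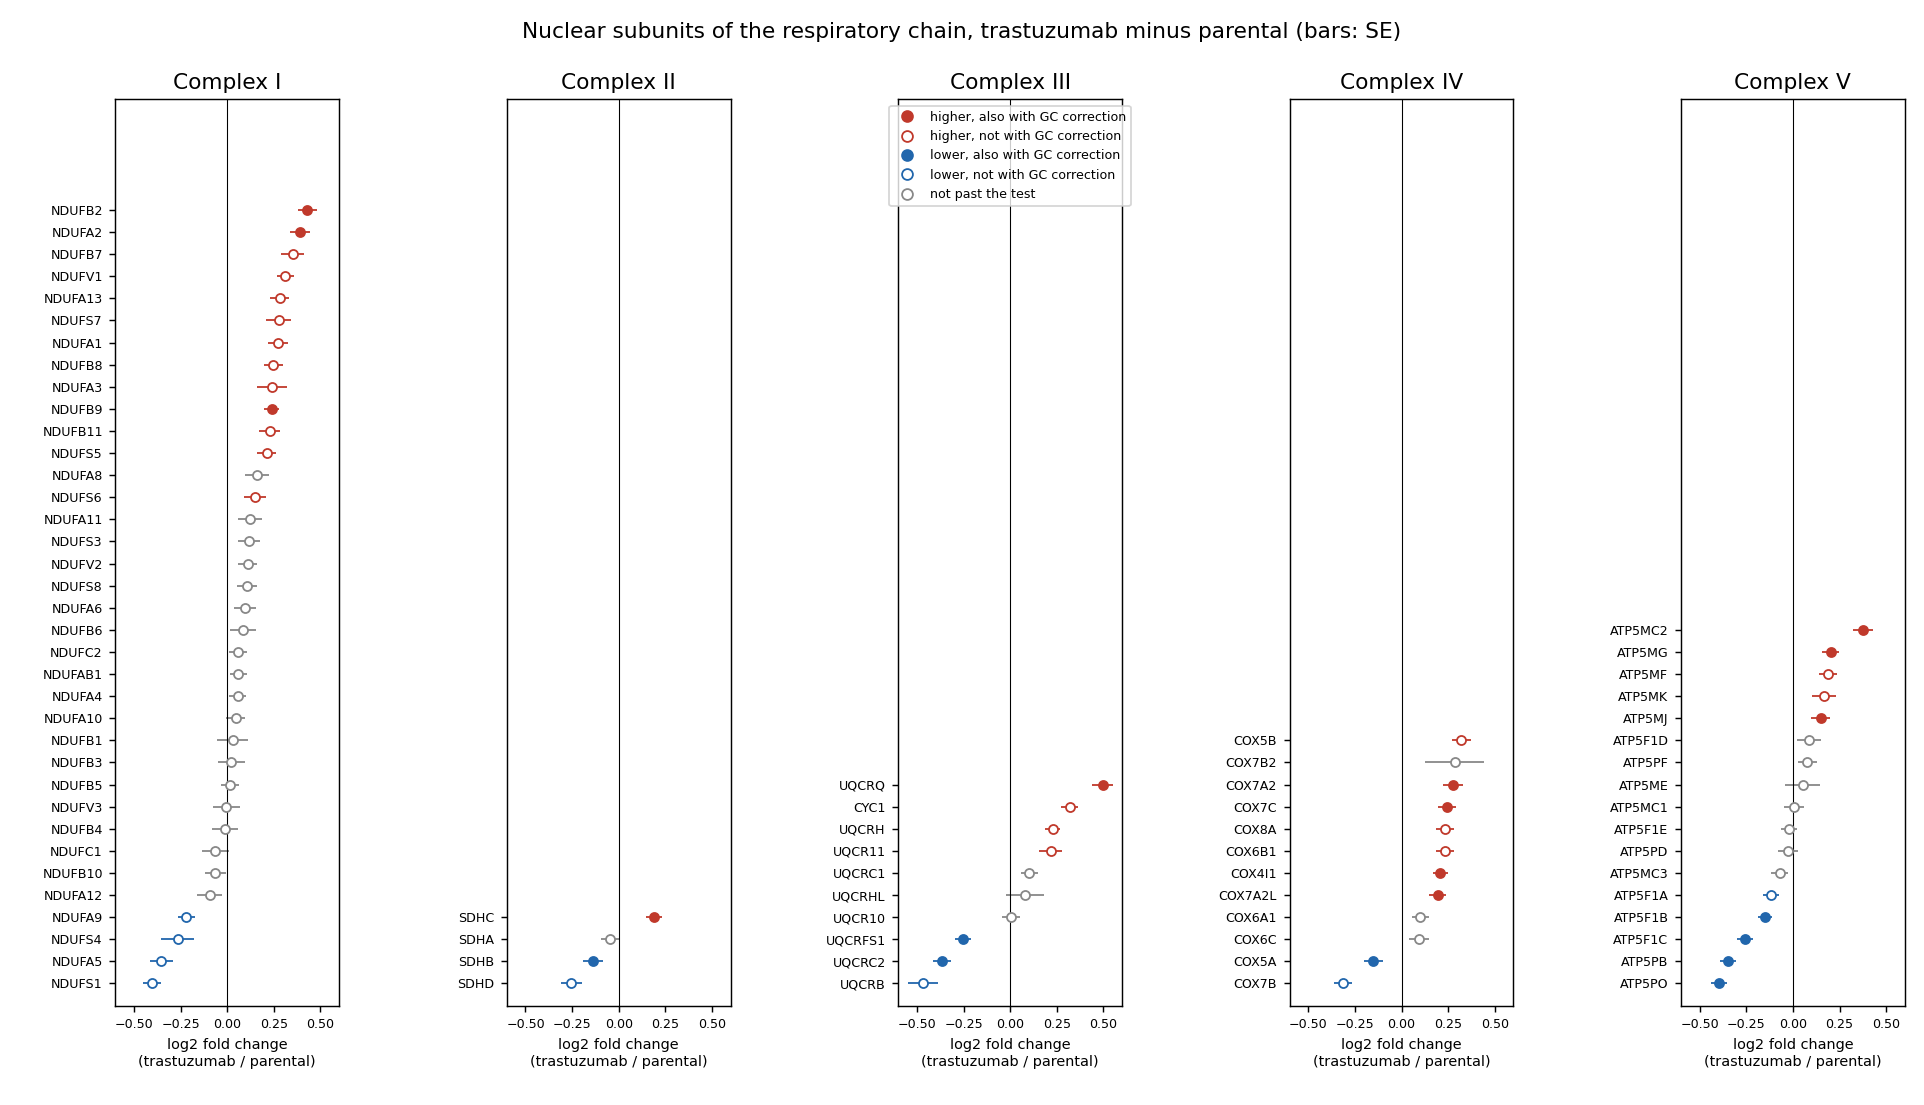
Log2 fold change (trastuzumab minus parental, horizontal axis) of the tested members, 1 point per gene with bars of 1 standard error, arranged by complex. Red is higher, blue lower and grey not called, filled points are members called in the same direction with and without a correction for GC content, and 4 members with a standard error of 0.3 or more and 1 other member are not drawn. Points of complexes I to V all lie on both sides of 0, and every member called without the correction stays below a 1.5-fold change there. With the correction, SDHC and NDUFB2 had log2 fold changes of 0.67 and 0.59.

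GC content, taken from each gene's longest annotated transcript, moved with the fold changes, and its part in the results was not tested. Slopes on GC content were taken only from tested protein-coding genes that averaged 10 CPM or more. In these genes, the log2 ratio of a trastuzumab library to a parental library rose by 0.26 to 0.45 for each 10% of GC content. Between libraries of 1 group this slope was at most 0.11 in size. A second fit, called the corrected fit here, removes from each library a smooth trend on GC content and exonic length. GC content and the groups cannot be told apart where they move together, so this fit also removes real changes that follow GC content. Among the members it reversed the relation to GC content (Pearson r 0.27 without it, -0.64 with it), so its calls also follow GC content. The corrected fit called 29 members higher and 23 lower, against 19.4% of all tested genes higher and 19.4% lower, with a median log2 fold change of 0.02. In 21 members the call was the same in both fits, 13 higher and 8 lower. In 10 members it was opposite, 16 were called in the uncorrected fit alone and 21 in the corrected fit alone. The share of all tested genes with the same call in both fits was not computed, so these counts have no background. With the tested members ordered by GC content in sets of 21, from lowest to highest, 4, 9, 8 and 0 had the same call. Having the same call in both fits therefore also varied with GC content.

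The members higher in both fits included NDUFA2, NDUFB2, NDUFB9, SDHC, UQCRQ, COX4I1, COX7A2, COX7A2L, COX7C, ATP5MC2, ATP5MG and ATP5MJ. The 8 lower in both fits were SDHB, UQCRC2, UQCRFS1, COX5A, ATP5F1B, ATP5F1C, ATP5PB and ATP5PO. Complexes II, III, IV and V had members in both lists. Of the 21 members of highest GC content, 55.74% to 64.97%, 10 were called higher and 0 lower without the correction, and 0 higher and 13 lower with it. Of the 21 members of lowest GC content, 35.04% to 42.74%, 4 were higher and 6 lower without it, and 16 higher and 0 lower with it. Across the 84 tested members, log2 fold change and GC content had a Pearson r of 0.27 and a Spearman rho of 0.35 without the correction, and of -0.64 and -0.66 with it, as a description only, since genes of the same libraries are not independent. Over tested protein-coding genes the uncorrected values were 0.39 and 0.55.

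**Figure D2:**
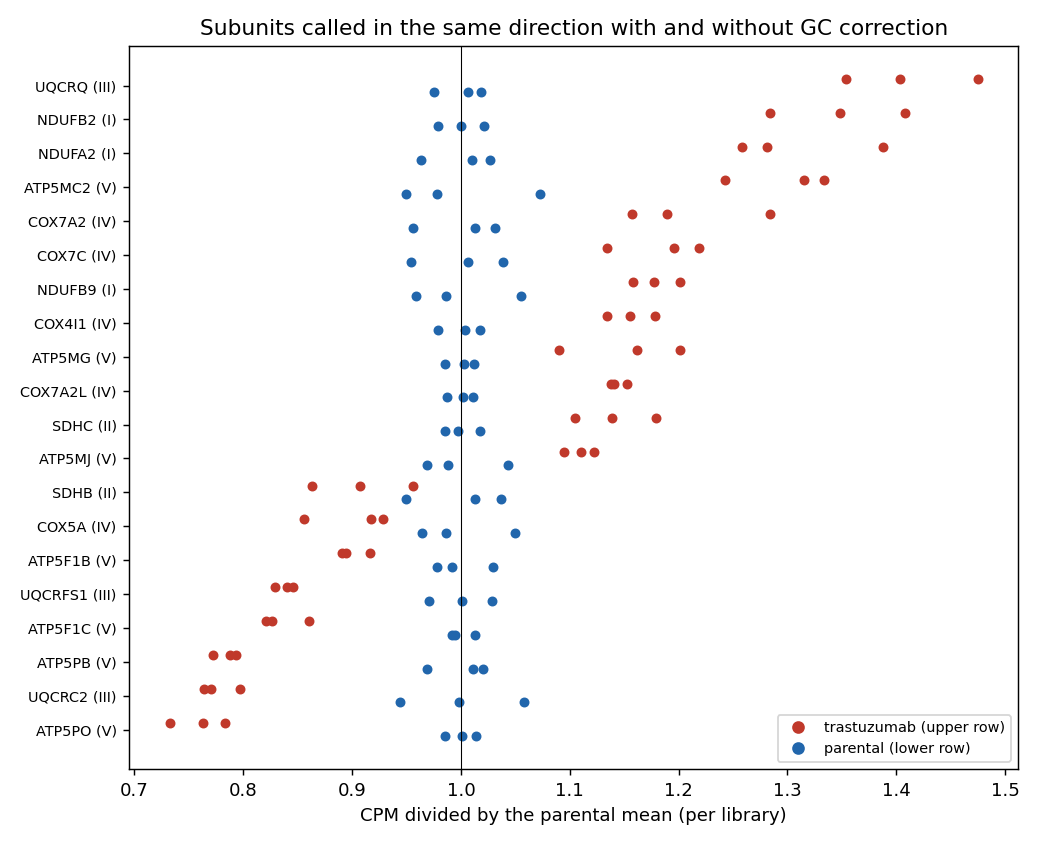
CPM of each library divided by the parental mean (horizontal axis) for members called in the same direction with and without the correction (1 member is not drawn), 1 row per gene with its complex, trastuzumab libraries above parental libraries. The higher genes lie right of 1 and the 8 lower genes left of it, and SDHB is the gene whose groups overlap.

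**Figure D3:**
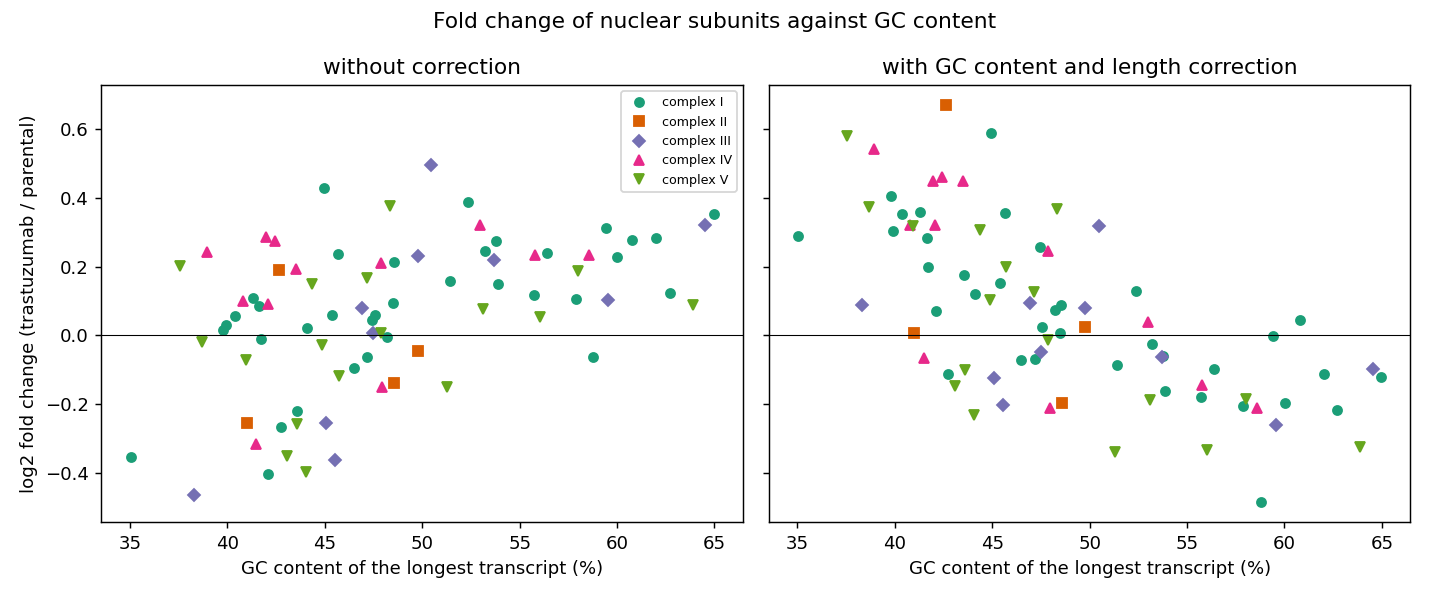
Log2 fold change (trastuzumab minus parental) of members against the GC content of their longest transcript in percent, 1 point per gene with a mark for each complex, before and after the correction. The uncorrected values slope upward (Pearson r 0.27) and the corrected values slope downward (Pearson r -0.64), and 4 members with a standard error of 0.3 or more and 1 other member are not drawn; the r values cover all 84.

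Promoters were available for 70 of the 90 members in RefSeq (build GRCh38.p14), as windows of 300 bases with 250 before and 50 after the annotated start. Respiratory chain promoters are known for binding sites of ETS-family factors, NRF1 and YY1, and the letters searched on both strands were CCGGAAG for ETS, GCATGCGC for NRF1 and AANATGGC for YY1, where N is any base. The ETS letters were in 20 windows (28.6%), against 14.2% of the 15843 protein-coding windows, the NRF1 letters in 13 (18.6%) against 4.26%, and the YY1 letters in 22 (31.4%) against 7.92%. At least 1 of the 3 was in 39 windows (55.7%), against 23.5% of protein-coding windows. In 19 windows the YY1 letters began within the last 61 bases, against 4.75% of protein-coding windows. They contain ATG and can coincide with a translation start, and ETS and YY1 letters overlapped in no member. The TATA box letters TATAAA were in 7 windows (10%), against 9.63%. Among members called higher without the correction, 5 of 25 windows held the YY1 letters and 12 the ETS letters, and among those called lower 8 of 14 held the YY1 letters and 3 the ETS letters. Among members called higher in both fits, 0 of 10 windows held the YY1 letters and 3 held the ETS letters. Among members called lower in both fits, 4 of 7 windows held the YY1 letters and 1 the ETS letters. These counts are descriptions of letters, and a match says nothing of binding.

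The promoters of 5 members with the same call in both fits are shown, chosen after the values were seen, to place these letters beside genes that were higher (UQCRQ and COX4I1) and lower (ATP5F1C, ATP5PB and ATP5PO) in trastuzumab cells. These 5 do not stand for all members with such calls. SDHB, lower in both fits, held the ETS, NRF1 and YY1 letters, and ATP5MC2, higher in both fits, held the NRF1 letters. The 5 shown are RefSeq sequences of GRCh38.p14 on each gene's own strand, 5′ to 3′, and capitals mark the letters found. UQCRQ lies at chr5:132866392-132866691 on the plus strand, with the ETS letters, and COX4I1 at chr16:85799445-85799744 on the plus strand, with the ETS letters on the opposite strand. ATP5F1C lies at chr10:7787927-7788226 on the plus strand, where the NRF1 letters occur on both strands and overlap. ATP5PB lies at chr1:111449214-111449513 on the plus strand, with the YY1 letters on the opposite strand, and ATP5PO at chr21:33915755-33916054 on the minus strand, with the YY1 letters.
UQCRQ: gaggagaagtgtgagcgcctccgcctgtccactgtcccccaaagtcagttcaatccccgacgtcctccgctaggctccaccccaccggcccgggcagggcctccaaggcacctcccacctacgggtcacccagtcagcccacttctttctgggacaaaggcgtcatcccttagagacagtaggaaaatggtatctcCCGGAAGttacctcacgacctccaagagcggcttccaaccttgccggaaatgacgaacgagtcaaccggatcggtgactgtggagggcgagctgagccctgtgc
COX4I1: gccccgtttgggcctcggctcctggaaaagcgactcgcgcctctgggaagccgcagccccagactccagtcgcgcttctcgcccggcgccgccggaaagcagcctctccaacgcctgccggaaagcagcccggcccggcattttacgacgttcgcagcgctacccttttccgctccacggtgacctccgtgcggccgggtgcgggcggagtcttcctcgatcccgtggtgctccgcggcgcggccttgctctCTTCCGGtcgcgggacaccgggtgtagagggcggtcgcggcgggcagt
ATP5F1C: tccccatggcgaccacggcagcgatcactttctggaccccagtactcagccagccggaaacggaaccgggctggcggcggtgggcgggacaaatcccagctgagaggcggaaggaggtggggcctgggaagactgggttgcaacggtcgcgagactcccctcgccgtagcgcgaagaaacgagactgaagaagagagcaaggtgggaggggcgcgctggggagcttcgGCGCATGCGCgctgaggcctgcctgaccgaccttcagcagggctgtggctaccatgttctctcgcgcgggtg
ATP5PB: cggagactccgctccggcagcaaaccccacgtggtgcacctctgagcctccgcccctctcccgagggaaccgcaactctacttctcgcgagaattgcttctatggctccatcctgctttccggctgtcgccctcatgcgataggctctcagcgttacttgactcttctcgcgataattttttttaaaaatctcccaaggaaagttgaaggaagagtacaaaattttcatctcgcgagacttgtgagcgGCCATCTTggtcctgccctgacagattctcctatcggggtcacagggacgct
ATP5PO: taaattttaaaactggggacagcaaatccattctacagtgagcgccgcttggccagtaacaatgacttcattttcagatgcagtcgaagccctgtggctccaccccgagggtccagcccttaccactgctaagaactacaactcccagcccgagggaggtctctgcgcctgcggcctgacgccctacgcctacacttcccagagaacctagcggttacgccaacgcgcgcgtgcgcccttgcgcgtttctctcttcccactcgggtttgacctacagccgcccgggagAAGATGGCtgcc

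Complex I, NADH dehydrogenase, has a matrix arm that oxidises NADH and a membrane arm that pumps protons. Of its 40 genes, all tested, 14 were higher, 4 lower and 22 not called in trastuzumab cells, and without NDUFA4 and its relative NDUFA4L2 the split was 14, 4 and 20. Of the 20 membrane arm genes 9 were higher and 0 lower, with a median log2 fold change of 0.14. Of the 16 matrix arm genes 5 were higher and 4 lower, with a median of 0.10. Calls made up 45% of membrane arm and 56.2% of matrix arm genes, against 49.3% of all tested genes and 59.7% of tested protein-coding genes. The difference between the arms was not tested. In the corrected fit the membrane arm had 8 genes higher and 4 lower and the matrix arm 5 higher and 3 lower.

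In the matrix arm, NDUFA2, an accessory subunit (chr5:140638740-140647785, hg38), had 97.7, 108 and 99.5 CPM in trastuzumab libraries, against 78.4, 74.8 and 79.7 CPM in parental libraries, a log2 fold change of 0.39 (adjusted p = 1.35e-05). NDUFV1, which binds FMN and oxidises NADH, had 307, 327 and 309 CPM in trastuzumab libraries, against 247, 253 and 259 CPM in parental libraries. Its log2 fold change was 0.31 without the correction and -0.00 with it (adjusted p = 1.62e-05 and 0.961), so that of this pair, both with separate groups, NDUFV1 lost its call and NDUFA2 kept it at 0.13.

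NDUFS1, the largest iron-sulfur core subunit, went the other way. It had 137, 131 and 138 CPM in trastuzumab libraries, against 189, 174 and 176 CPM in parental libraries, a log2 fold change of -0.40 (SE 0.05, adjusted p = 2.95e-06), and 0.07 in the corrected fit. All trastuzumab libraries lay below all parental libraries. The accessory subunit NDUFA5 had 119, 107 and 101 CPM in trastuzumab libraries, against 148, 133 and 136 CPM in parental libraries, a log2 fold change of -0.35 (adjusted p = 0.000152). NDUFA9, which binds NADPH near the junction of the arms, had 126, 125 and 118 CPM in trastuzumab libraries, against 145, 141 and 144 CPM in parental libraries, a log2 fold change of -0.22 (adjusted p = 0.000866). Groups were separate for both genes, yet both were called higher in the corrected fit, at 0.29 and 0.17. NDUFS4, an accessory subunit mutated in Leigh syndrome, had 17.6, 16.8 and 18.3 CPM in trastuzumab libraries, against 23.2, 20.0 and 20.3 CPM in parental libraries, a log2 fold change of -0.27 (adjusted p = 0.0189). This call was lost without trastuzumab replicate 2 or parental replicate 1 (adjusted p = 0.0745 and 0.0993), and in the corrected fit, at -0.11. NDUFS7, an iron-sulfur core subunit, and NDUFS6, an accessory subunit, were higher by 0.28 and 0.15 on the log2 scale, and NDUFS6 lost its call without any of 4 libraries, trastuzumab 2 or 3 or parental 1 or 2 (adjusted p = 0.115 to 0.199). In the corrected fit NDUFS7 was not called, at 0.04, and NDUFS6 was called lower, at -0.16 (adjusted p = 0.635 and 0.0103).

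NDUFA7, in the matrix arm, and the read-through NDUFC2-KCTD14 were singled out after their values were seen, for the spread of their replicates. NDUFA7 had 4.21, 15.5 and 6.96 CPM in trastuzumab libraries, against 13.1, 16.4 and 15.0 CPM in parental libraries (adjusted p = 0.357). Its groups overlapped because trastuzumab replicate 2 stood with the parental libraries. NDUFA7 shares its strand and position with another annotated gene, so its counts are uncertain. NDUFC2-KCTD14, which overlaps NDUFC2, had 2.70, 10.3 and 4.34 CPM in trastuzumab libraries, against 3.61, 3.48 and 3.07 CPM in parental libraries (adjusted p = 0.321), and there too trastuzumab replicate 2 stood apart from the other libraries. NDUFC2 itself averaged 143 ± 5.58 CPM in trastuzumab and 137 ± 3.13 CPM in parental cells (SD, n = 3 each) and was not called, but was called higher in the corrected fit, at 0.15.

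In the membrane arm, NDUFB2, an accessory subunit of the distal part (chr7:140690777-140722790), had 118, 124 and 113 CPM in trastuzumab libraries, against 86.0, 89.6 and 87.8 CPM in parental libraries. Its log2 fold change was 0.43 (SE 0.05, adjusted p = 2.51e-06) and 0.59 in the corrected fit, with no overlap. NDUFB7, another distal accessory subunit, had 90.7, 103 and 87.0 CPM in trastuzumab libraries, against 70.4, 73.1 and 76.1 CPM in parental libraries, a log2 fold change of 0.35 (adjusted p = 0.000151), and -0.12 in the corrected fit, where it was not called. NDUFA13, NDUFA1, NDUFB8, NDUFA3, NDUFB11 and NDUFS5 were higher by 0.21 to 0.28 on the log2 scale, and none of these 6 was called higher in the corrected fit, where NDUFA13 and NDUFB11 were called lower. NDUFA3 lost its call without trastuzumab replicate 2 or parental replicate 1 or 2 (adjusted p = 0.056 to 0.108).

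NDUFB9, a membrane arm subunit, was singled out after its values were seen, because it supplied 31.8% ± 0.224 of the complex I counts in trastuzumab and 30.0% ± 0.694 in parental libraries (SD, n = 3 each). It had 1787, 1824 and 1758 CPM in trastuzumab libraries, against 1496, 1456 and 1601 CPM in parental libraries. The groups were separate, with a log2 fold change of 0.24 (SE 0.04, adjusted p = 0.000169), and 0.36 in the corrected fit. Per length, it stood at 374 ± 6.76 FPKM in trastuzumab and 333 ± 13.2 FPKM in parental cells, the highest of complex I. NDUFB9 overlaps TATDN1 and MTSS1 on the other strand. These stood at 20.0 and 7.31 CPM in trastuzumab and 22.0 and 7.72 CPM in parental libraries, on average, and were not called. NDUFA4 had 401, 428 and 412 CPM in trastuzumab libraries, against 409, 384 and 402 CPM in parental libraries, with overlapping groups and a log2 fold change of 0.06 (adjusted p = 0.33), and was called higher in the corrected fit, at 0.35 (adjusted p = 1.18e-05). NDUFA4L2, known to be induced by hypoxia, stayed at 0.132 CPM in trastuzumab and 0.177 CPM in parental libraries on average.

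Complex II, succinate dehydrogenase, links the citric acid cycle to the chain, and its 4 genes split between its head and its membrane anchor. SDHA, the flavoprotein that oxidises succinate, had 266, 287 and 293 CPM in trastuzumab libraries, against 284, 284 and 306 CPM in parental libraries, with overlapping groups (log2 fold change -0.05, adjusted p = 0.478). SDHB, its iron-sulfur partner, had 117, 123 and 111 CPM in trastuzumab libraries, against 134, 122 and 130.5 CPM in parental libraries. SDHB's groups overlapped by 1 library of each group, its log2 fold change was -0.14 (adjusted p = 0.0397), and the call was lost without trastuzumab replicate 1 or 3 or parental replicate 1 or 3 (adjusted p = 0.0762 to 0.197). The pseudogene SDHAP4 reached 4.75% of the level of SDHA, the highest share among the 189 annotated pseudogenes of 50 members, so reads of SDHA and SDHAP4 could be split between them by the counting.

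The anchor subunits, which hold heme and bind ubiquinone, differed in direction. SDHC (chr1:161314257-161375340) had 269, 287 and 277 CPM in trastuzumab libraries, against 248, 239.9 and 243 CPM in parental libraries, a log2 fold change of 0.19 (adjusted p = 0.00148), and 0.67 in the corrected fit. SDHD had 88.5, 81.3 and 88.0 CPM in trastuzumab libraries, against 108, 97.8 and 101 CPM in parental libraries, a log2 fold change of -0.25 (adjusted p = 0.000943), and 0.01 in the corrected fit. Every trastuzumab library was above every parental library for SDHC and below every one for SDHD. Summed over the 4 genes, CPM was 763 ± 20.1 in trastuzumab and 766 ± 19.1 in parental libraries.

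Complex III had 4 genes higher, 3 lower and 3 not called of 10, with log2 fold changes from -0.47 to 0.50. The called share of complex III was 70%, against 49.3% of all tested genes and 59.7% of tested protein-coding genes. Of its catalytic subunits, CYC1, the cytochrome c1 that hands electrons to cytochrome c, had 361, 385 and 361 CPM in trastuzumab libraries, against 290.3, 287 and 309 CPM in parental libraries, a log2 fold change of 0.32 (adjusted p = 1.91e-05). UQCRFS1, the Rieske iron-sulfur protein, had 161, 163 and 164 CPM in trastuzumab libraries, against 199, 188 and 194 CPM in parental libraries, a log2 fold change of -0.25 (adjusted p = 0.000134), and -0.13 in the corrected fit. Neither gene's groups overlapped, and CYC1 was called lower in the corrected fit, at -0.10. UQCRC2, a core protein facing the matrix, had 189.7, 182 and 183 CPM in trastuzumab libraries, against 252, 238 and 225 CPM in parental libraries, a log2 fold change of -0.36 (SE 0.05, adjusted p = 9.94e-06). Its partner UQCRC1 averaged 399 ± 11.7 CPM in trastuzumab and 372 ± 17.5 CPM in parental cells (SD, n = 3 each) and was not called (adjusted p = 0.0724), but was called lower in the corrected fit, at -0.26 (adjusted p = 9.25e-06).

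Among the small subunits, UQCRQ, whose promoter is given above, had 68.8, 72.3 and 66.4 CPM in trastuzumab libraries, against 49.9, 49.3 and 47.8 CPM in parental libraries. Its log2 fold change was 0.50 (SE 0.06, adjusted p = 2.2e-06) and 0.32 in the corrected fit, and its lowest trastuzumab library lay well above its highest parental one. UQCRB, a quinone-binding subunit, had 21.2, 24.8 and 23.0 CPM in trastuzumab libraries, against 33.1, 29.7 and 32.6 CPM in parental libraries, a log2 fold change of -0.47 (SE 0.08, adjusted p = 0.000133), and 0.09 in the corrected fit, where it was not called. UQCR11 had 65.2, 70.0 and 67.7 CPM in trastuzumab libraries, against 54.5, 57.7 and 62.2 CPM in parental libraries, a log2 fold change of 0.22 (adjusted p = 0.00693). Groups were separate for both genes, in opposite directions. UQCRH, the hinge protein that docks cytochrome c, had 339.7, 352 and 345 CPM in trastuzumab libraries, against 293, 296 and 295 CPM in parental libraries, a log2 fold change of 0.23 (adjusted p = 0.000163). Its near copy UQCRHL had 12.4, 13.5 and 12.9 CPM in trastuzumab libraries, against 13.1, 12.1 and 11.6 CPM in parental libraries, with overlapping groups (adjusted p = 0.567), and reads of the pair could be split between them by the counting. Neither was called in the corrected fit.

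Complex IV, cytochrome c oxidase, had 7 genes higher, 2 lower and 3 not called of 12 tested, with a median log2 fold change of 0.22, the highest of the complexes. The called share of complex IV was 75%, against 49.3% of all tested genes and 59.7% of tested protein-coding genes. Of its tissue-restricted isoforms, COX4I2, COX6A2 and COX8C had 0 counts in every library, COX7A1 and COX6B2 stayed at or under 0.0543 CPM, and COX7B2 was expressed at a low level. COX4I1, the general form of the largest nuclear subunit, had 286, 292 and 281 CPM in trastuzumab libraries, against 249, 242 and 252 CPM in parental libraries, a log2 fold change of 0.21 (adjusted p = 0.000526), and 0.25 in the corrected fit. COX5B, a zinc-binding subunit, had 134, 151 and 142 CPM in trastuzumab libraries, against 114, 116 and 112 CPM in parental libraries, a log2 fold change of 0.32 (adjusted p = 5.97e-05), and 0.04 in the corrected fit. The groups did not overlap in either gene. COX5A, by contrast, had 123, 132 and 133 CPM in trastuzumab libraries, against 138, 142 and 151 CPM in parental libraries, a log2 fold change of -0.15 (adjusted p = 0.0208). The groups of COX5A were separate, but its call was lost without trastuzumab replicate 1 or parental replicate 3 (adjusted p = 0.114 and 0.0682).

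COX6A1, the general form of a subunit whose other form is that of heart and skeletal muscle, had 158, 157 and 156 CPM in trastuzumab libraries, against 146, 143 and 151 CPM in parental libraries. The groups were separate but the call was missed (log2 fold change 0.10, adjusted p = 0.0714), and the gene was called in the corrected fit, at 0.32. COX6B1 had 276, 289 and 267 CPM in trastuzumab libraries, against 242, 226 and 240.3 CPM in parental libraries, a log2 fold change of 0.23 (adjusted p = 0.000477). COX8A had 173, 176 and 167 CPM in trastuzumab libraries, against 144, 143 and 151 CPM in parental libraries, a log2 fold change of 0.23 (adjusted p = 0.000437). For both the groups were separate and the corrected fit called them lower, at -0.15 and -0.21.

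The COX7 genes were split. COX7A2 had 109, 118 and 106 CPM in trastuzumab libraries, against 94.9, 87.9 and 93.2 CPM in parental libraries, a log2 fold change of 0.28 (adjusted p = 0.000413). COX7C had 227, 231 and 215 CPM in trastuzumab libraries, against 191, 181 and 197 CPM in parental libraries, a log2 fold change of 0.24 (adjusted p = 0.000437). COX7A2L, which joins complexes III and IV in supercomplexes, had 113, 114 and 113 CPM in trastuzumab libraries, against 100.3, 97.9 and 99.4 CPM in parental libraries, a log2 fold change of 0.19 (adjusted p = 0.00204). All trastuzumab libraries exceeded all parental libraries in these 3 genes, and their corrected log2 fold changes were 0.46, 0.54 and 0.45. COX7B had 181, 180.1 and 179 CPM in trastuzumab libraries, against 233, 210.2 and 228 CPM in parental libraries, a log2 fold change of -0.32 (SE 0.05, adjusted p = 3.44e-05), and -0.07 in the corrected fit, where it was not called. Its relative COX7B2, known from testis, had 5.84, 4.98 and 5.05 CPM in trastuzumab libraries, against 4.65, 4.47 and 3.89 CPM in parental libraries (log2 fold change 0.29, SE 0.16, adjusted p = 0.153), and was called in the corrected fit, at 0.45 (adjusted p = 0.0257). COX7B lay lower and COX7B2 higher in every trastuzumab library, so per length COX7B2 was 9.78% ± 0.746 of the pair in trastuzumab and 6.68% ± 0.707 in parental libraries (SD, n = 3 each).

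Complex V, the ATP synthase, had 5 genes higher, 5 lower and 8 not called of 18 tested. The called share of complex V was 55.6%, against 49.3% of all tested genes and 59.7% of tested protein-coding genes. In the uncorrected fit the F1 head had 0 higher and 3 lower of 5, the peripheral stalk 0 higher and 2 lower of 4, the c-ring 1 higher and 0 lower of 3, and the small membrane subunits 4 higher and 0 lower of 5 tested, while ATP5MGL had 0 counts in every library. In the corrected fit the head had 2 higher and 3 lower, the stalk 0 higher and 3 lower, the c-ring 2 higher and 0 lower, and the small membrane subunits 2 higher and 2 lower. Without the correction, 60% of the head, 50% of the stalk, 33.3% of the c-ring and 80% of the tested small membrane genes were called. Differences between the parts were not tested. In the head, ATP5F1B, the catalytic beta subunit, had 1809, 1861 and 1817 CPM in trastuzumab libraries, against 2015, 1987 and 2091 CPM in parental libraries, a log2 fold change of -0.15 (adjusted p = 0.00315), and -0.34 in the corrected fit. ATP5F1C, the gamma subunit at the centre of the rotor, had 195, 193 and 203 CPM in trastuzumab libraries, against 238, 233 and 234 CPM in parental libraries, a log2 fold change of -0.26 (adjusted p = 9.08e-05). Neither gene's groups overlapped. ATP5F1A, the alpha subunit, averaged 376 ± 7.27 CPM in trastuzumab and 408 ± 11.1 CPM in parental libraries (SD, n = 3 each; log2 fold change -0.12, adjusted p = 0.0263), and its call was lost without any of trastuzumab replicates 1, 2 or 3 or parental replicate 2 (adjusted p = 0.0536 to 0.127). The corrected fit called ATP5F1A higher, at 0.20. ATP5F1D and ATP5F1E, the delta and epsilon subunits, were not called without the correction, whereas the corrected fit called ATP5F1D lower, at -0.32, and ATP5F1E higher, at 0.37.

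The peripheral stalk holds the head still while the rotor turns. ATP5PO, the OSCP subunit at the top of the stalk, had 138, 133 and 142 CPM in trastuzumab libraries, against 184, 178 and 181 CPM in parental libraries. Its log2 fold change was -0.40 (SE 0.05, adjusted p = 1.82e-06) and -0.23 in the corrected fit. ATP5PB, the b subunit, had 211, 206 and 212 CPM in trastuzumab libraries, against 273, 259 and 270.5 CPM in parental libraries, a log2 fold change of -0.35 (SE 0.04, adjusted p = 3.9e-06), and -0.15 in the corrected fit. In both genes the highest trastuzumab library was far below the lowest parental one. ATP5PD and ATP5PF, the d and F6 subunits, differed by -0.03 and 0.08 on the log2 scale and were not called, and the corrected fit called ATP5PF lower, at -0.19.

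The c-ring genes ATP5MC1, ATP5MC2 and ATP5MC3 encode the same mature c subunit behind different import sequences. ATP5MC2 had 114, 112 and 106 CPM in trastuzumab libraries, against 83.2, 80.9 and 91.3 CPM in parental libraries, a log2 fold change of 0.38 (adjusted p = 2.86e-05), and 0.37 in the corrected fit. ATP5MC1 had 78.1, 72.4 and 73.8 CPM in trastuzumab libraries, against 72.5, 72.0 and 78.9 CPM in parental libraries (log2 fold change 0.01, adjusted p = 0.949). ATP5MC3 had 273, 284 and 264 CPM in trastuzumab libraries, against 296, 272 and 294 CPM in parental libraries (log2 fold change -0.07, adjusted p = 0.239). The groups overlapped in ATP5MC1 and ATP5MC3 and not in ATP5MC2, and the corrected fit called ATP5MC3 higher, at 0.32. Per length, ATP5MC2 made up 29.1% ± 0.297 of the RNA of the 3 genes in trastuzumab and 23.5% ± 0.569 in parental libraries, ATP5MC3 41.5% ± 1.04 in trastuzumab and 45.8% ± 1.23 in parental, and ATP5MC1 29.4% ± 1.07 in trastuzumab and 30.7% ± 0.726 in parental (SD, n = 3 each).

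The small membrane subunits sit beside the ring, where some of them help ATP synthase dimers form. ATP5MG, subunit g, had 292, 302 and 274 CPM in trastuzumab libraries, against 254, 247 and 252 CPM in parental libraries, a log2 fold change of 0.20 (adjusted p = 0.00137), and 0.58 in the corrected fit. ATP5MF, subunit f, had 252, 253 and 238 CPM in trastuzumab libraries, against 220.2, 204 and 228 CPM in parental libraries, a log2 fold change of 0.19 (adjusted p = 0.00436), but was called lower in the corrected fit, at -0.18. Both had separate groups. ATP5MK had 52.0, 51.6 and 48.6 CPM in trastuzumab libraries, against 42.8, 45.3 and 47.4 CPM in parental libraries (log2 fold change 0.17, adjusted p = 0.0427), with groups just separate. ATP5MJ had 87.7, 88.7 and 86.4 CPM in trastuzumab libraries, against 82.4, 76.5 and 78.0 CPM in parental libraries (log2 fold change 0.15, adjusted p = 0.0209), also without overlap. ATP5MK lost its call without trastuzumab replicate 1 or 2 or parental replicate 1 or 2 (adjusted p = 0.0889 to 0.14), and ATP5MJ without any trastuzumab replicate or parental replicate 2 (adjusted p = 0.0523 to 0.103). ATP5MF overlaps ATP5MF-PTCD1 and PTCD1 on its own strand, so its level is uncertain.

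Levels of different genes can be set side by side only per length, for which the authors' FPKM values were used. The median member had 35.8 FPKM in trastuzumab and 36.3 FPKM in parental libraries, and 74 of the 84 tested members reached 10 FPKM in parental cells. Complex IV had the highest median, 67.4 FPKM in trastuzumab and 69.6 FPKM in parental libraries, and complex I the lowest, 24.2 FPKM in trastuzumab and 24.4 FPKM in parental libraries. ATP5F1B led all members with 702 ± 9.56 FPKM in trastuzumab and 818 ± 14.0 FPKM in parental cells, followed by NDUFB9 and by COX8A with 299 ± 8.57 FPKM in trastuzumab and 267 ± 5.47 FPKM in parental cells (SD, n = 3 each). Among complex III genes UQCRB stood lowest, at 1.57 ± 0.115 FPKM in trastuzumab and 2.27 ± 0.128 FPKM in parental cells. This rank depends on the length used, since the annotated exons of UQCRB cover 9715 bases, against 5217 for UQCRC2, the next longest. In CPM UQCRHL averaged lower, at 12.9 in trastuzumab and 12.2 in parental libraries, against 23.0 and 31.8 for UQCRB.

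**Figure D4:**
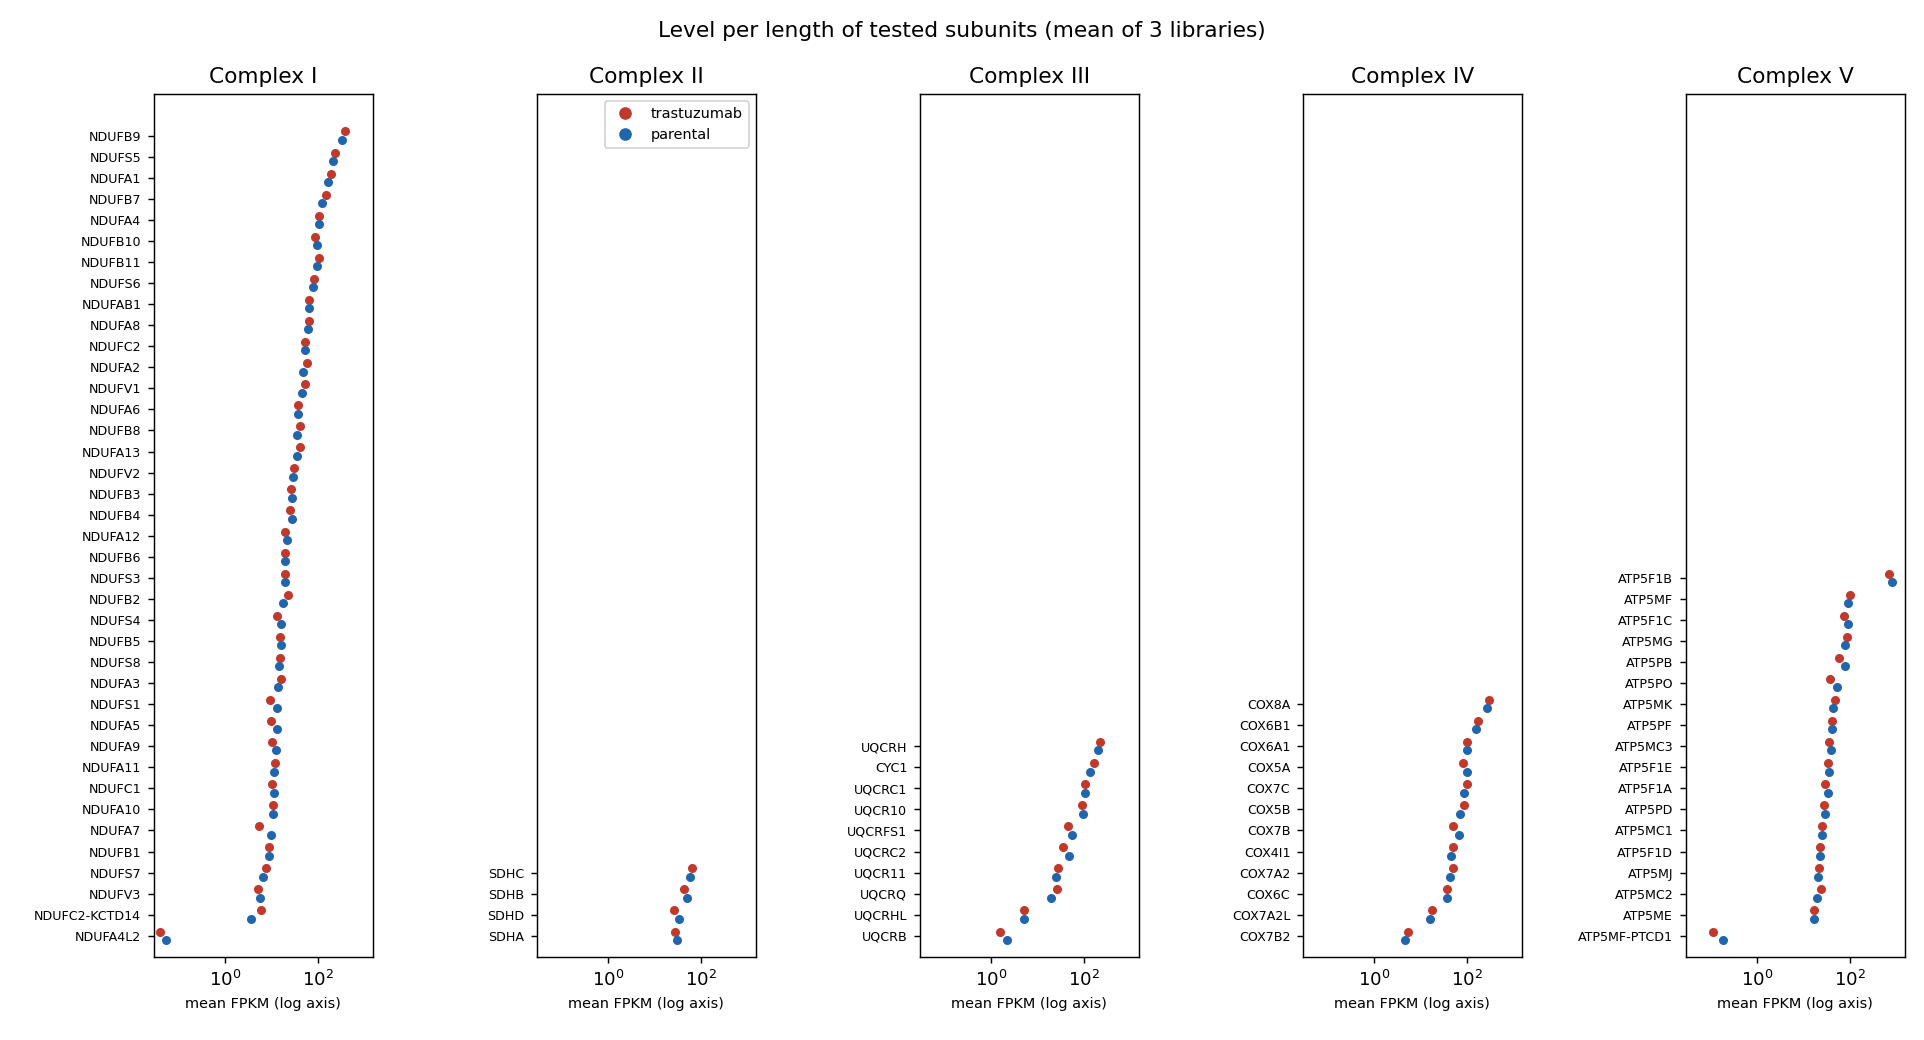
Level of the tested members, 1 excepted, per length, as the mean of the authors' FPKM over 3 libraries on a log axis, in the trastuzumab and parental libraries, arranged by complex. Levels within a complex differ far more between genes than between the groups. In complex III, UQCRH stood at 221 FPKM in trastuzumab and 198 FPKM in parental cells, and UQCRB at 1.57 and 2.27 FPKM.

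Summed over complexes, CPM differed by little. The 40 complex I genes summed to 5622 ± 124 CPM in trastuzumab and 5058 ± 136 CPM in parental libraries, a ratio of 1.11, or 1.08 without NDUFB9. Complex IV had a ratio of 1.09, complex III of 1.05, complex II of 0.996 and complex V of 0.941. Within complex I the membrane arm had a ratio of 1.15 (1.11 without NDUFB9) and the matrix arm of 1.07. Within complex V the peripheral stalk had a ratio of 0.848, the F1 head of 0.907, the c-ring of 1.03 and the small membrane subunits of 1.14. A sum in CPM gives most weight to genes with many counts, so the complex V ratio leans on ATP5F1B. All 90 genes summed to 14402 ± 248 CPM in trastuzumab and 13864 ± 311 CPM in parental libraries, a ratio of 1.04 (SD, n = 3 each). As plain shares of all counts, with no scaling factor, they were 1.41% ± 0.0168 in trastuzumab and 1.41% ± 0.02 in parental libraries, and the ratios of complexes I to V were 1.07, 0.959, 1.01, 1.05 and 0.906. The c-ring's ratio turned to 0.988 on that scale. In bulk RNA a lower level per cell and fewer cells with a given level cannot be told apart.

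**Figure D5:**
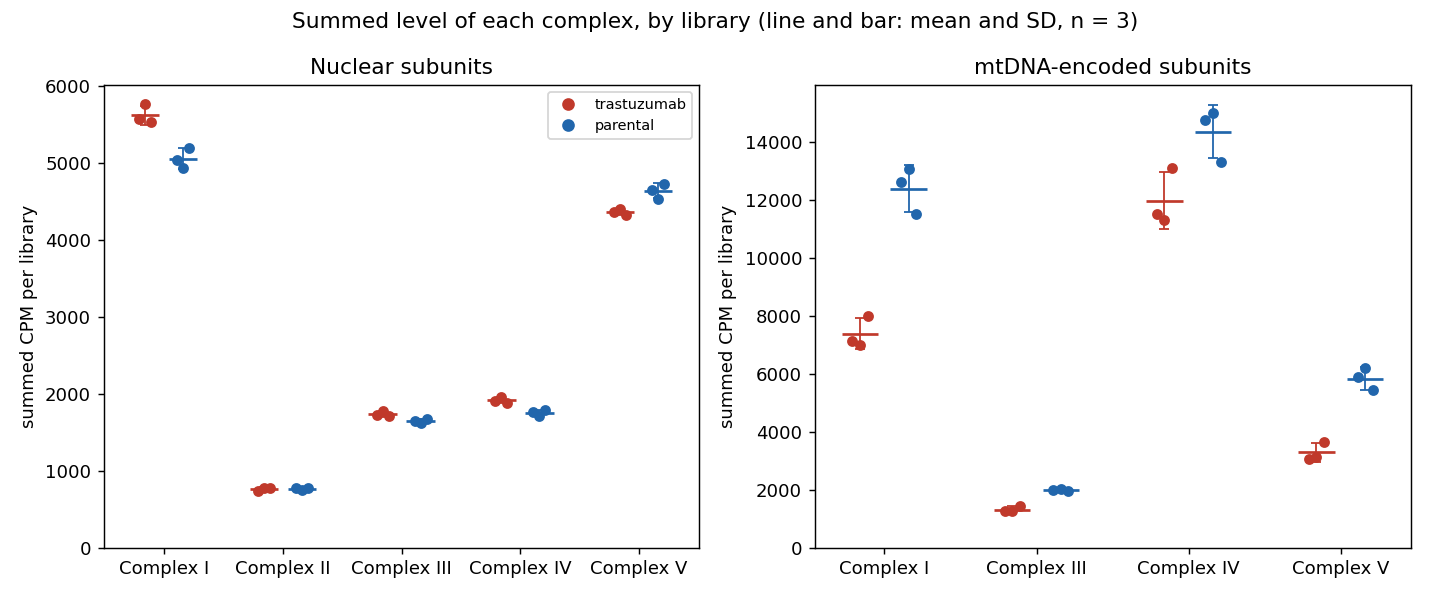
Summed CPM of the nuclear subunits of each complex and of the mtDNA-encoded subunits, 1 point per library with trastuzumab left of parental, lines at the mean and bars of 1 SD (n = 3). Nuclear sums of trastuzumab and parental libraries lie close together, at ratios of 0.941 to 1.11, while the mtDNA-encoded sums of trastuzumab libraries lie lower.

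The RNAs of the partner subunits encoded by mtDNA were lower in trastuzumab cells. Of these 13 genes 12 were lower in both fits, 0 were higher and 1, MT-CO1, was not called, with a median log2 fold change of -0.72. Over all tested genes 25.4% were lower without the correction and 19.4% with it. The summed level of the 13 mtDNA genes was 23004, 22679 and 26207 CPM in trastuzumab libraries, against 35218, 36291 and 32203 CPM in parental libraries, a ratio of 0.693 without overlap. The ratio of nuclear to mtDNA-encoded sums was 0.622, 0.647 and 0.543 in trastuzumab libraries, against 0.394, 0.373 and 0.44 in parental libraries. Nuclear subunits thus made up more of the chain's RNA in every trastuzumab library. The same order held within complexes I, III, IV and V, and was closest in complex IV, at 0.165, 0.174 and 0.143 in trastuzumab libraries, against 0.119, 0.114 and 0.134 in parental libraries.

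MT-ND4L, a complex I subunit, fell most, to 556, 534 and 627 CPM in trastuzumab libraries, against 1129, 1158 and 1011 CPM in parental libraries (log2 fold change -0.94, SE 0.07, adjusted p = 2.74e-07). MT-ATP6, the proton channel subunit of ATP synthase, had 2136, 2167 and 2538 CPM in trastuzumab libraries, against 4154, 4379 and 3837 CPM in parental libraries (log2 fold change -0.85, adjusted p = 2.04e-05). MT-ND4 had 2714, 2685 and 3096 CPM in trastuzumab libraries, against 5087, 5288 and 4555 CPM in parental libraries (log2 fold change -0.81, adjusted p = 7.61e-06). No library of 1 group reached the other in these genes. MT-CO1, the catalytic subunit of complex IV, averaged 8051 ± 797 CPM in trastuzumab and 8379 ± 508 CPM in parental libraries (SD, n = 3 each), with overlapping groups (adjusted p = 0.584). Counts of mtDNA genes are uncertain, since they have nuclear copies and MT-ND4L overlaps MT-ND4 as MT-ATP8 overlaps MT-ATP6.

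The mobile carriers, ubiquinone synthesis and cytochrome c, had 6 genes higher and 2 lower of 14. This is 57.1% called, against 49.3% of all tested genes and 59.7% of tested protein-coding genes. CYCS, cytochrome c itself, had 304, 280.1 and 274 CPM in trastuzumab libraries, against 461, 422 and 426 CPM in parental libraries (log2 fold change -0.61, SE 0.05, adjusted p = 5.21e-08), and -0.33 in the corrected fit. COQ8A, an atypical kinase needed for ubiquinone synthesis, had 87.3, 95.2 and 93.1 CPM in trastuzumab libraries, against 50.9, 49.5 and 51.1 CPM in parental libraries (log2 fold change 0.86, SE 0.05, adjusted p = 2.49e-09), and 0.80 in the corrected fit. CYCS and COQ8A changed in opposite directions in both fits, with no overlap between the groups in CPM. COQ4, a scaffold of the same pathway, had 39.7, 38.4 and 38.5 CPM in trastuzumab libraries, against 28.9, 30.1 and 30.4 CPM in parental libraries (log2 fold change 0.38, adjusted p = 0.000159).

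Assembly factors were mixed as well. The share called was 55.6% for complex I, 75% for II, 83.3% for III, 53.8% for IV and 40% for V. Over all tested genes it was 49.3%, and over tested protein-coding genes 59.7%. For complex I 7 were higher and 3 lower of 18. ECSIT, which acts with TMEM186 in building the membrane arm, rose to 41.2, 50.3 and 44.2 CPM in trastuzumab libraries, against 28.6, 30.8 and 31.1 CPM in parental libraries (log2 fold change 0.59, adjusted p = 1.25e-05). NDUFAF4 had 14.7, 14.5 and 15.2 CPM in trastuzumab libraries, against 21.1, 17.9 and 20.6 CPM in parental libraries (log2 fold change -0.42, adjusted p = 0.000994). TMEM186 had 18.7, 17.7 and 18.0 CPM in trastuzumab libraries, against 14.7, 13.9 and 12.8 CPM in parental libraries (log2 fold change 0.39, adjusted p = 0.00176). Of these 3 genes, each with separate groups, ECSIT alone was called in the corrected fit, at 0.18, where TMEM186 was at 0.19 (adjusted p = 0.105) and NDUFAF4 at -0.03. For complex II 2 were higher and 1 lower of 4. SDHAF3 had 13.6, 12.7 and 12.8 CPM in trastuzumab libraries, against 19.5, 19.2 and 19.4 CPM in parental libraries (log2 fold change -0.57, adjusted p = 3.87e-05), and -0.42 in the corrected fit. SDHAF1 had 30.7, 32.5 and 28.3 CPM in trastuzumab libraries, against 20.7, 20.5 and 22.4 CPM in parental libraries (log2 fold change 0.53, adjusted p = 3.28e-05), and SDHAF2 46.3, 46.7 and 45.1 CPM in trastuzumab libraries, against 39.3, 40.4 and 41.0 CPM in parental libraries (log2 fold change 0.19, adjusted p = 0.0165). SDHAF3 and SDHAF1 both serve the iron-sulfur subunit SDHB, and their opposite calls were not shared by the corrected fit, where SDHAF1 was not called, at 0.08 (adjusted p = 0.422).

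For complex III 3 factors were higher and 2 lower of 6. UQCC3 had 77.3, 85.8 and 76.6 CPM in trastuzumab libraries, against 51.9, 52.7 and 58.4 CPM in parental libraries (log2 fold change 0.56, adjusted p = 1.82e-06). UQCC2 had 68.6, 68.2 and 68.2 CPM in trastuzumab libraries, against 47.6, 51.8 and 52.5 CPM in parental libraries (log2 fold change 0.43, adjusted p = 1.07e-05). Both are needed for cytochrome b, the mtDNA-encoded subunit MT-CYB, and both were higher in the corrected fit too. LYRM7 binds the Rieske protein before it is inserted. It had 7.62, 6.33 and 8.45 CPM in trastuzumab libraries, against 12.1, 10.8 and 7.51 CPM in parental libraries. Its groups overlapped (log2 fold change -0.44, SE 0.17, adjusted p = 0.04), and it was not called in the corrected fit.

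For complex IV 9 factors were higher and 5 lower of 26. LRPPRC, which stabilises mRNAs made from mtDNA, had 104.6, 91.7 and 98.6 CPM in trastuzumab libraries, against 183, 181 and 165 CPM in parental libraries (log2 fold change -0.84, SE 0.06, adjusted p = 6.55e-09), and -0.42 in the corrected fit. COX14, which binds newly made MT-CO1, had 66.9, 67.6 and 66.4 CPM in trastuzumab libraries, against 45.6, 47.9 and 50.1 CPM in parental libraries (log2 fold change 0.48, adjusted p = 3.14e-06), and CMC2 18.6, 17.0 and 18.4 CPM in trastuzumab libraries, against 27.5, 23.3 and 24.2 CPM in parental libraries (log2 fold change -0.48, adjusted p = 0.000215). Groups were separate in all 3 genes, and neither COX14, at 0.12, nor CMC2, at 0.02, was called in the corrected fit. For complex V 1 was higher and 1 lower of 5. ATPAF2, which chaperones the alpha subunit, had 12.8, 13.4 and 11.1 CPM in trastuzumab libraries, against 7.79, 9.77 and 8.99 CPM in parental libraries (log2 fold change 0.49, adjusted p = 0.00297). ATPAF1, which chaperones the beta subunit, had 51.1, 49.4 and 53.3 CPM in trastuzumab libraries, against 67.3, 67.3 and 65.6 CPM in parental libraries (log2 fold change -0.38, adjusted p = 3.02e-05). Both calls were the same in the corrected fit, so the chaperones of the F1 head moved in opposite directions.

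Of 10 tested regulators of mitochondrial biogenesis 3 were higher and 5 lower, which is 80% called. Over all tested genes 49.3% were called, and over tested protein-coding genes 59.7%. PPARGC1A had 0 counts in 5 libraries and 4 counts in trastuzumab replicate 3. GABPA, an ETS-family activator of these genes, had 14.0, 17.6 and 13.4 CPM in trastuzumab libraries, against 24.3, 22.2 and 20.4 CPM in parental libraries (log2 fold change -0.57, adjusted p = 0.000291), and was not called in the corrected fit, at -0.09. ESRRA, a nuclear receptor that drives oxidative genes, had 269.9, 289.9 and 274 CPM in trastuzumab libraries, against 182, 187 and 196 CPM in parental libraries (log2 fold change 0.56, adjusted p = 5.64e-08), and 0.17 in the corrected fit. PPARGC1B, its coactivator, had 52.2, 44.9 and 48.1 CPM in trastuzumab libraries, against 67.3, 70.6 and 69.8 CPM in parental libraries (log2 fold change -0.52, adjusted p = 4.1e-06), and -0.40 in the corrected fit. None of these 3 had overlapping groups. YY1, whose letters were searched above, was lower at -0.34 (adjusted p = 3.35e-05) and -0.20 in the corrected fit, whereas NRF1 was not called, at 0.12 (adjusted p = 0.184).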

How the data were processed

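Per the labels' protocols, total RNA from SKBR3 cells was made into directional RNA-seq libraries. The authors deposited raw counts per Ensembl gene and FPKM values, which are counts scaled by gene length and depth. The submitters' processing notes name STAR 2.4.2a and hg38. How reads were counted, with which strand setting and annotation, is not given in the sources used here, and overlapping genes may therefore share reads. Such an overlap with a tested gene exists for 37 of the 84 tested members, in 13 cases on the same strand. NDUFB2, NDUFB8, NDUFA9, NDUFA13 and ATP5MG are among these 13, so their levels are uncertain too. GENCODE 29 gave positions, exonic lengths and GC content, and RefSeq gave promoters.

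The main test was edgeR 4.0.16 under R 4.3.3 on the deposited counts (filterByExpr, TMM, robust quasi-likelihood F test, no covariate) over all 17854 tested genes with Benjamini-Hochberg adjustment, and a script check on simulated counts was run. The corrected fit adds spline offsets (5 degrees of freedom) on GC content and length. Alternatives used DESeq2 1.42.0, limma 3.58.1 on log2(FPKM + 1) and log2(FPKM + 0.1), other scaling and filters, a replicate block, and leaving out each library. A count of 0 allows at most 3 counts, a limit of counting error only.

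Per-library values were printed by rule: in each complex up to 4 called members with the largest rise and 4 with the largest fall, all of complex II, tissue isoform pairs of which at least 1 gene reached 1 CPM, and from each of 8 lists of partner genes up to 3 called genes with the largest change. NDUFV1, ATP5MJ, NDUFB9, NDUFA7 and NDUFC2-KCTD14 were added after their values were seen. The members and lists were chosen with earlier results of these data known. Whether replicate numbers pair the libraries is not settled. Deviations of same-numbered libraries correlated at -0.01 to 0.05, and those of differently numbered libraries at -0.0545 to 0.0048. With 3 libraries per group these values cannot decide it. No 2 libraries of a group agreed within sampling noise. Values of 1 member are not reported here, though it is in the counts, medians and sums.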

Additional observations from a re-analysis of the deposited data

How the results depend on the processing

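Scaling by library totals moved the median log2 fold change of all genes by -0.05 and the FPKM fits moved it by -0.06 to -0.07, and the members' median of 0.0897 went with it, to 0.0348 (library totals), 0.0238 (log2(FPKM + 1)), 0.0244 (log2(FPKM + 0.1)) and 0.0201 (no FPKM filter). It was 0.0241 with GC content and length offsets. Without the FPKM filter 19 members, 9 of complex I, 0 of complex II and 1 of complex V were higher. Complex V had 3 higher by library totals and by both filtered FPKM fits. With GC content and length offsets complex I had 7 lower, complex II 1 lower, complex III 1 higher and complex V 8 lower. Complex II had 1 lower with DESeq2 size factors, with no filter and with DESeq2's Wald test.

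The pairing by replicate number is not in the labels. With the replicate block, 30 members were higher and 15 lower and complex II had 1 lower. The block with GC offsets gave 29 higher and 23 lower, a median of 0.0239, and 7 (complex I), 1 (complex II) and 8 (complex V) lower with 1 higher in complex III.

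Leaving out each library gave 27 to 35 members higher and 13 to 15 lower, complex I 12 to 16 higher and 3 to 4 lower, complex II 1 to 2 lower, complex III 4 to 5 higher, complex IV 7 to 8 higher and 1 to 2 lower, complex V 3 to 5 higher and 4 to 5 lower, and medians of 0.0779 to 0.104. Of 47 called members 39 kept the call without each library, and the other 8 are named with their values above.

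With GC and length offsets, 35 of the 84 tested members had the other sign, and the cause was not tested. Among the genes picked by the rule for printing, partner genes included, 16 did. Their log2 fold changes there, followed by those with the block added, were 0.318 and 0.3179 (ATP5MC3), -0.184 and -0.183 (ATP5MF), -0.146 and -0.145 (COX6B1), -0.2106 and -0.2105 (COX8A), -0.0981 and -0.0978 (CYC1), 0.29 and 0.289 (NDUFA5), 0.175 and 0.174 (NDUFA9), -0.122 and -0.123 (NDUFB7), 0.0705 and 0.0709 (NDUFS1), 0.0245 and 0.024 (SDHA), 0.0068 and 0.0069 (SDHD), -0.0635 and -0.0626 (UQCR11), 0.0896 and 0.0854 (UQCRB), 0.0563 and 0.0648 (LYRM7), 0.0194 and 0.0217 (CMC2), and -0.014 and -0.0134 (ATP5MC1). ATP5MC1, near 0 throughout, was also -0.0487 by library totals, -0.0609, -0.063 and -0.0609 in the FPKM fits, and -0.0273 to 0.0489 when each library was left out (-0.0131 and -0.0184 without parental replicate 1 and 2). NDUFA4 was -0.0145, -0.0146 and -0.0145 in the FPKM fits. Depth limits COX7A1 and COX6B2, which stayed near the floor of 3 counts.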
